A study of Mus musculus with 44 samples.

Results

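The caudal homeobox genes Cdx1, Cdx2 and Cdx4 were followed through 44 low-input RNA-seq libraries of lineage-traced mouse embryos that fell into 12 groups. The 3 genes were taken by gene name from the 32287 gene IDs of the deposited tables, and their values are TPM, a transcript abundance normalised for gene length and library size. Each embryo was an aggregate of an mCherry+ morula (CD1/G4) with GFP+ mESCs (G4), so that cells of extraembryonic origin carried mCherry and cells of embryonic origin carried GFP. The prefix em marks embryonic and ex marks extraembryonic origin.

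At E6.5 the groups were the epiblast (Epi, GFP+), the distal extraembryonic endoderm (exEndo1, mCherry+) and the proximal extraembryonic endoderm (exEndo2, mCherry+), with 4 libraries each from single dissected embryos. At E9.5 they were emMidgut and emHindgut (EPCAM+, GFP+ with low mCherry), exMidgut and exHindgut (EPCAM+, mCherry+) and the mCherry+ yolk sac endoderm (YsEndo), with 4 libraries each and 4 embryos pooled per library. At E13.5 they were the small intestine (emSI, exSI) and the colon (emColon, exColon), sorted as EPCAM+ from single embryos, with 3 libraries each. All cells were WT except exSI and exColon, in which Trp53 had been disrupted in the zygote (Trp53 KO). Origin and strain could therefore not be told apart between embryonic and extraembryonic groups, and at E13.5 genotype was confounded with both. All embryonic cells descended from cultured mESCs, whereas the extraembryonic cells descended from the host morulae. Ages include a 24-hour delay that uterine transfer causes. The labels do not say that libraries with different numbers came from separate cultures or litters, so that the p-values measure the spread between these libraries.

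CDX proteins are transcription factors of the caudal family that give posterior identity to the embryo and to the gut. They act on Hox genes, and Wnt, fibroblast growth factor (FGF) and retinoic acid signals act on their own transcription in the tail bud. Cdx2 is also required in trophectoderm and is the main determinant of intestinal identity in endoderm. Cdx1 is mostly a gene of the primitive streak, neural tube and intestinal epithelium, and Cdx4 is the member with the most posterior and most transient expression.

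In the mm10 build Cdx2 (ENSMUSG00000029646) lies on the minus strand of chromosome 5 from 147300805 to 147307270, and Cdx4 (ENSMUSG00000031326) lies on the plus strand of the X chromosome from 103321398 to 103330592. No other annotated gene was found within 2000 bases of either gene. Of the 3 members 2, Cdx2 and Cdx4, were matched in the promoter table by symbol, and the sequences just before their starts are shown as the regulatory regions of the members with the higher levels. They are from RefSeq (GRCm38.p6), written 5′ to 3′ on the gene's strand, and cover chr5:147307271-147307499 (minus strand) and chrX:103321148-103321397 (plus strand), with capitals marking an octamer, the recognition sequence of POU factors such as OCT4.
Cdx2: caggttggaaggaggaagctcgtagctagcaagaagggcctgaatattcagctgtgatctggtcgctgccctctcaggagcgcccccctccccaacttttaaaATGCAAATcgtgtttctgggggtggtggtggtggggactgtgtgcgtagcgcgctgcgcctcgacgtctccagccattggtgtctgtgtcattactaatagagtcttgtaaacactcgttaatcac
Cdx4: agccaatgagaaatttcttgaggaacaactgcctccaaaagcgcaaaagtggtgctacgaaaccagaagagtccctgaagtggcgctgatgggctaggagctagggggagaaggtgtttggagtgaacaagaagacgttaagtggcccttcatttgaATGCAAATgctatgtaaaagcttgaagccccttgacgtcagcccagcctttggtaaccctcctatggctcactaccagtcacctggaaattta

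Both strands of the windows were searched for CTTTGA, the core read by the TCF/LEF factors of Wnt signalling, and for TTTATNG, the core read by CDX proteins. Neither window held either motif, while 13.8% and 9.81% of 32851 windows of 250 bases before annotated starts held them. The octamer ATGCAAAT, which was searched only after the windows had been read, begins 126 bases before the start of Cdx2 and 93 bases before that of Cdx4, and occurs in 1.6% of all windows. The Cdx2 window of 229 bases is 53.7% G or C with 11 CpG sites, and the Cdx4 window of 250 bases is 48.4% G or C with 5, against medians of 52.4% and 6 over all windows. These letters are a description of the windows and not evidence of binding.

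The libraries matched their labels by the reporters: mCherry was at most 6.61 TPM in any embryonic library and at least 1730 TPM in any extraembryonic library. EGFP was at least 180 TPM in the former and at most 15.9 TPM in the latter. Trp53 transcript was still present in the Trp53 KO libraries, at 33.4 to 167 TPM against 151 to 245 TPM in the E13.5 embryonic libraries, and a transcript level does not test the disrupted protein. All 8 epiblast markers exceeded 1 TPM in every Epi library, all 10 yolk sac endoderm markers did so in every YsEndo library, and 9 or 10 of the 10 gut endoderm markers did so in every gut library. Germ cell transcripts were also present in some emMidgut libraries and are given with the midgut values. Read counts were not used here, and the mean read coverage per base of the Cdx genes, 1.86 to 6.89 for each TPM, gives the depth behind each value. In these bulk samples fewer cells with a transcript and less transcript per cell cannot be told apart.

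Cdx2 was the member present in every group, and its level separated the groups into 3 tiers. In Epi it was listed at 0.196 to 0.548 TPM. In the extraembryonic endoderm before and outside the gut it stood between 8.2 and 28.4 TPM, with means of 19.1 ± 8.34 TPM in exEndo1, 17.7 ± 6.44 TPM in exEndo2 and 17.3 ± 4.71 TPM in YsEndo (SD, n = 4 each). In all 8 gut groups it stood between 96.7 and 401 TPM, where 2.05 to 5.15% of 21531 protein-coding genes had a higher mean. In descending order the gut means were 349.5 ± 51.4 TPM in emMidgut, 267 ± 29.3 in emHindgut, 244 ± 61.4 in exHindgut, 217 ± 41 in emColon, 209 ± 32.8 in exSI, 201 ± 81.3 in exColon, 179 ± 81.5 in emSI and 153 ± 24.6 in exMidgut (SD, n = 4 at E9.5 and 3 at E13.5). Each neighbouring pair of gut groups in that order overlapped in its single libraries. The steps from exMidgut down to exEndo1 and from YsEndo down to Epi did not overlap.

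Cdx4 was concentrated in a single group. In emHindgut its values were 451, 509, 437 and 526 TPM, a mean of 481 ± 43.1 (SD, n = 4), and only 1.51% of protein-coding genes had a higher mean there. The emMidgut libraries came next and split, with 42.6 and 34.4 TPM in replicates 1 and 2 but 3.57 and 2.83 TPM in replicates 3 and 4. In exHindgut replicate 1 had 16.2 TPM while replicates 2 and 3 were listed at 0 and replicate 4 at 0.0797 TPM. Among the exMidgut libraries only replicate 4 was above 0, at 0.147 TPM. At E6.5 no library exceeded 0.283 TPM, and all 4 YsEndo and all 12 E13.5 libraries were listed at 0. The step from emHindgut to emMidgut did not overlap, and each later neighbouring pair in the order did.

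Cdx1 (ENSMUSG00000024619), on the minus strand of chromosome 18 from 61018862 to 61036199 in mm10, was low almost everywhere. Its highest single value was 29.6 TPM in emColon replicate 1, beside 2 emColon libraries listed at 0. The emHindgut libraries had 3.57, 2.88, 0.856 and 6.63 TPM, the emSI libraries 7.37, 0.342 and 2.24 TPM, and the exHindgut libraries 0.524, 2.61, 0.548 and 0 TPM. Cdx1 was listed at 0 in all exMidgut, YsEndo and exColon libraries, and above 0 in only 1 of 4 emMidgut libraries (1.75 TPM) and 1 of 3 exSI libraries (1.25 TPM). At E6.5 no library exceeded 0.287 TPM. Every neighbouring pair of groups in the order of Cdx1 means overlapped, while groups further apart in it, such as emHindgut and Epi, did not.

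**Figure D1:**
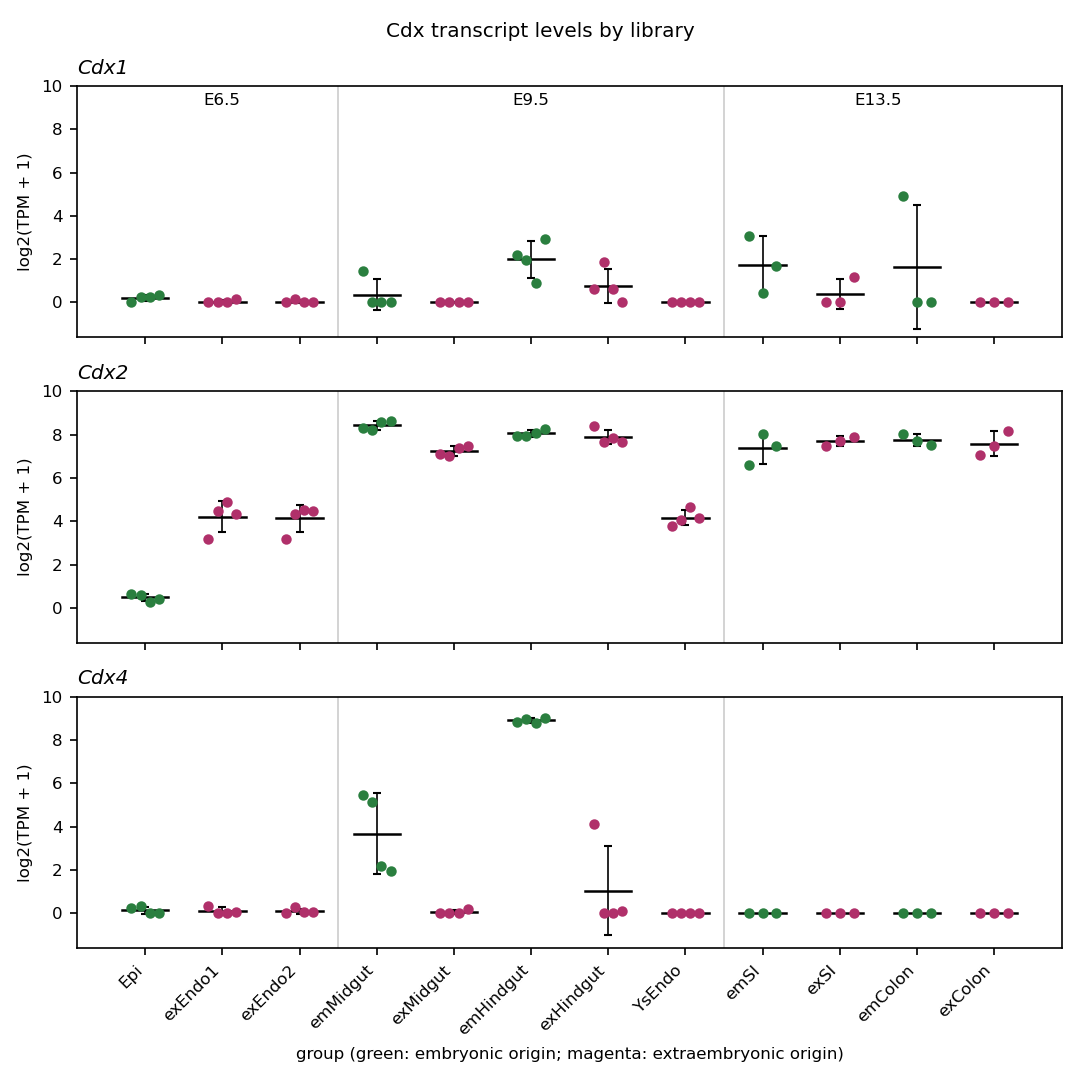
Levels of Cdx1, Cdx2 and Cdx4 as log2(TPM + 1) in each of the 44 libraries, by group, with the group mean (line) and SD (bar); green is embryonic and magenta extraembryonic origin. Cdx2 is high in all 8 gut groups, Cdx4 reaches 437 to 526 TPM only in emHindgut, and Cdx1 is low.

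The first comparison asked whether the extraembryonic endoderm of E6.5 already differs from the epiblast in Cdx expression. Cdx2 was higher in both endoderm groups, and it was the only member tested there, because Cdx1 and Cdx4 did not pass the filter of more than 1 TPM in at least 4 libraries. Epi had 0.548, 0.536, 0.196 and 0.338 TPM against 8.22, 21, 28.4 and 18.9 TPM in exEndo1 and 8.2, 19.5, 22.2 and 21 TPM in exEndo2. Neither endoderm group overlapped Epi, as for 56.6% of genes in exEndo1 and 59.4% in exEndo2. The difference in log2(TPM + 1) was 3.73 ± 0.338 (SE, limma with Benjamini-Hochberg adjustment, adjusted p = 2.29e-07) for exEndo1 and 3.66 ± 0.338 (adjusted p = 2.52e-07) for exEndo2. Over all genes tested, 33.1% and 35.3% were called in these comparisons, a call being an adjusted p below 0.05 with a log2 difference beyond 1 in either direction. Both comparisons share the Epi libraries.

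Within the endoderm Cdx2 did not separate distal from proximal: exEndo1 minus exEndo2 was 0.08 ± 0.338 on the log2 scale, with a 95% confidence interval from -0.65 to 0.80 (limma, adjusted p = 0.917), while 6.32% of all genes were called. Replicate 1 was the lowest library in both groups. The fit did not pair same-numbered libraries, although these deviated together from their group means, so the SE and the interval include spread that such pairs share. Beside this the extraembryonic ectoderm, where Cdx2 is also expressed, was checked by 13 markers, which summed to 94 to 151 TPM in exEndo1, 110 to 187 TPM in exEndo2 and 33.6 to 137 TPM in Epi. Its defining gene Elf5 was at 0.0923 to 2.74 TPM in exEndo1 and 0.155 to 7.02 TPM in exEndo2. Of the 13 markers 9 were tested. In exEndo1 minus Epi 4 were higher and 0 lower, where 20% of all genes were higher and 13.2% lower. In exEndo2 minus Epi 4 were higher and 1 lower, where 20.3% of all genes were higher and 15.1% lower. In exEndo1 minus exEndo2 1 was higher and 2 lower. The part of such cells in the Cdx2 level was not tested.

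At E9.5 the design asked whether gut cells of extraembryonic origin carry the Cdx levels of embryonic gut cells at the same site. In the midgut 2 of the 3 members were called, both lower in exMidgut, where 3.87% of all genes were called. Cdx2 was at 137, 128, 167 and 180 TPM in exMidgut and at 320, 293, 384 and 401 TPM in emMidgut. The groups did not overlap, as for 10.3% of genes, and the emMidgut mean was 2.28 times the exMidgut mean. The log2 difference was -1.19 ± 0.153 (SE, limma, adjusted p = 5.13e-05, n = 4 per group).

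Cdx4 was lower by a wider margin in exMidgut, with at most 0.147 TPM against 2.83 to 42.6 TPM in emMidgut. The groups did not overlap, and the difference of log2(TPM + 1) was -3.63 ± 0.786 (limma, adjusted p = 0.00756). The tail bud is the other place where Cdx4 is expressed, and the emMidgut library with the highest Cdx4 also had the highest sum of 12 tail bud markers. The sums were 82.4, 14.7, 6.85 and 7.14 TPM in emMidgut replicates 1 to 4, whose Cdx4 was 42.6, 34.4, 3.57 and 2.83 TPM, and 4.53 to 16.5 TPM in exMidgut. Germ cell transcripts were uneven as well: the sum of 7 markers was 378, 104, 337 and 125 TPM in emMidgut replicates 1 to 4 and 71.8 to 129 TPM in exMidgut, with none of 4 tested called by limma. Dppa3, a germ cell marker, reached 224 TPM in emMidgut and at most 0.462 TPM in exMidgut. Neural markers summed to 11.6 to 18.7 TPM in emMidgut and 0.804 to 6.53 TPM in exMidgut, with 2 of 3 tested lower. Yolk sac endoderm markers were higher in exMidgut, 7 of 10, with sums of 7100 to 17100 TPM against 1470 to 3200 TPM in emMidgut, and YsEndo itself had Cdx2 at 17.3 ± 4.71 TPM. The part of such cells in the Cdx2 and Cdx4 differences was not tested. Cdx1 was above 0 in 1 of these 8 libraries and its difference of -0.37 ± 0.486 was not called (limma, adjusted p = 0.753).

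In the hindgut only Cdx4 was called, and it was lower in exHindgut, with 2.64% of all genes called. The highest exHindgut library had 16.2 TPM and the lowest emHindgut library 437 TPM, so that the groups stayed apart, as they did for 11.9% of genes. The difference of log2(TPM + 1) was -7.85 ± 0.786 (SE, limma, adjusted p = 1.32e-06, n = 4 per group), rank 6 by absolute size among 13473 genes tested. Mean coverage per base was 6.38, 3.17, 1.86 and 4.48 for each TPM in exHindgut replicates 1 to 4, the third of which was the lowest of all libraries, and 2.02 to 6.22 in emHindgut. Without exHindgut replicate 1 the difference was -8.87. That replicate had EGFP, the reporter of embryonic cells, at 0.011 TPM.

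Cdx2 showed no such difference in the hindgut. It was at 334, 205, 232 and 205 TPM in exHindgut and 248, 242, 272 and 307 TPM in emHindgut, overlapping ranges with a log2 difference of -0.16 ± 0.153 and a 95% confidence interval from -0.48 to 0.16 (limma, adjusted p = 0.706). Cdx1 was 0 to 2.61 TPM in exHindgut and 0.856 to 6.63 TPM in emHindgut. Its difference of -1.22 ± 0.486 had an interval from -2.23 to -0.21 and was not called (limma, adjusted p = 0.199).

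Together these values changed the composition of the Cdx transcripts. In emHindgut Cdx4 made up 61.6 to 67.5% of the summed Cdx TPM and Cdx2 32.1 to 38.3%, with a mean sum of 752 ± 62.4 TPM (SD, n = 4). In exHindgut Cdx2 made up 95.2 to 99.96% of a sum of 248.7 ± 69.1 TPM. In emMidgut Cdx2 made up 87.8 to 99.3% of 371 ± 33.2 TPM, and in exMidgut at least 99.9% of 153 ± 24.7 TPM.

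**Figure D2:**
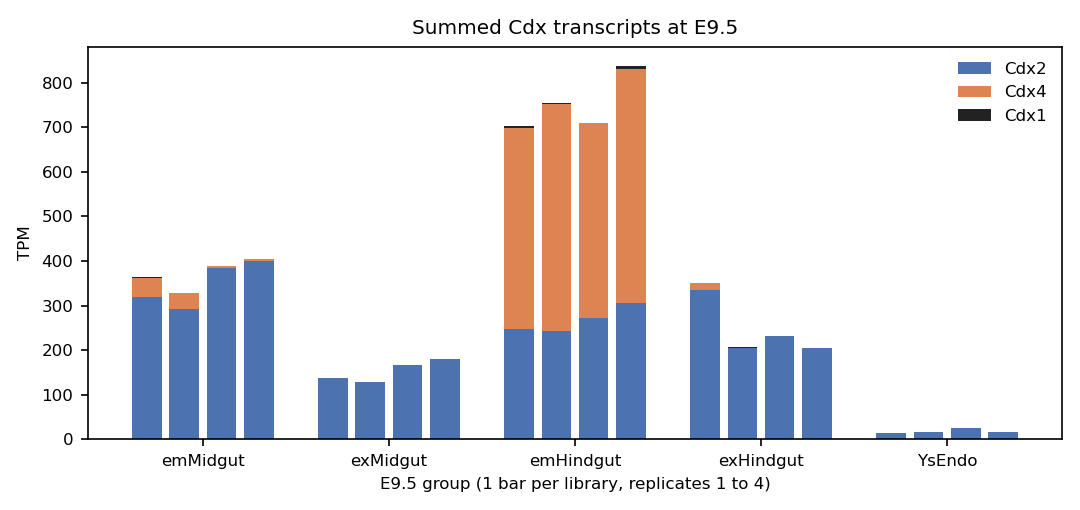
Stacked TPM of Cdx2 (blue), Cdx4 (orange) and Cdx1 (black) in each of the 20 E9.5 libraries, 1 bar per library and 4 per group. Cdx4 forms the larger part of each emHindgut bar, a small part of the first 2 emMidgut bars and of the first exHindgut bar, and no visible part elsewhere.

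Averaged over both regions, exGut minus emGut was -5.74 ± 0.555 for Cdx4 (limma, adjusted p = 4.21e-07), the only member called among 4.6% of genes called. Cdx2 differed by -0.67 ± 0.108 (adjusted p = 0.000265) without reaching the fold threshold, and Cdx1 by -0.79 ± 0.343 (adjusted p = 0.153). Whether the origin difference itself differed between hindgut and midgut was tested as an interaction, (exHindgut minus emHindgut) minus (exMidgut minus emMidgut), for which 0.0965% of genes had an adjusted p below 0.05. No member did. The interaction was 1.03 ± 0.217 for Cdx2 (unadjusted p = 0.000112, adjusted p = 0.0793), -4.22 ± 1.11 for Cdx4 (limma, adjusted p = 0.199) and -0.86 ± 0.687 for Cdx1 (adjusted p = 0.842). The Cdx4 interaction was called without exHindgut replicate 1 (-5.24, limma, adjusted p = 0.0181) and with all 44 libraries in a single fit (-4.22, adjusted p = 0.00539). On the log2(TPM + 1) scale the midgut difference of Cdx4 was bounded by the emMidgut mean, 20.8 TPM against 481 TPM in emHindgut. It could not reach the hindgut difference, so the interaction does not show a larger relative difference in hindgut. The ratio of embryonic to extraembryonic mean TPM was 565 in midgut, with exMidgut at 0.0368 TPM, and 118 in hindgut.

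**Figure D3:**
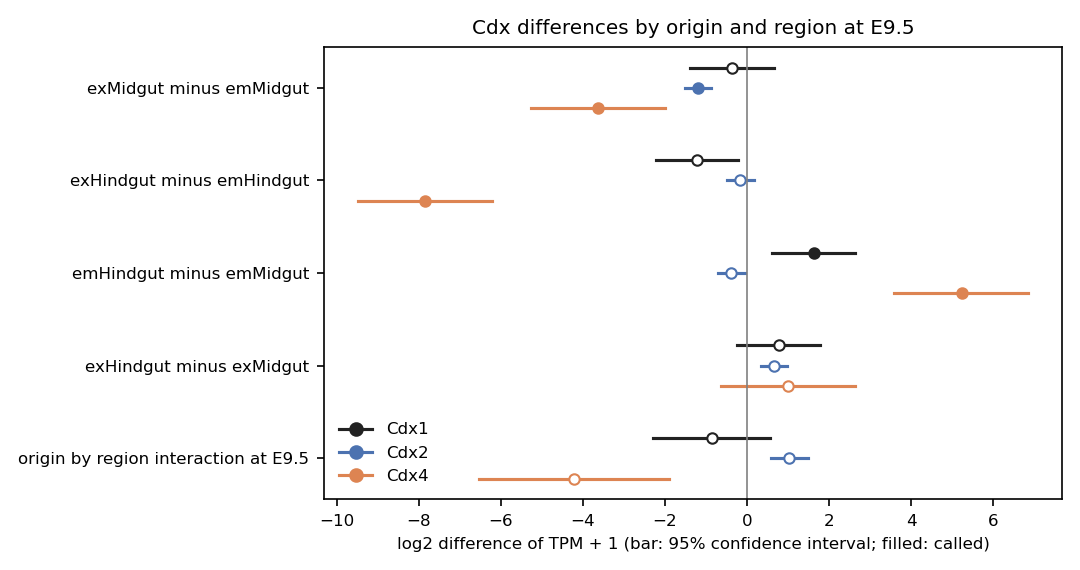
Differences of log2(TPM + 1) between E9.5 groups for Cdx1 (black), Cdx2 (blue) and Cdx4 (orange) with 95% confidence intervals; filled points were called. Cdx4 is lower in both extraembryonic groups, and Cdx2 is lower in exMidgut only among the called differences.

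Along the gut axis the embryonic cells differed in Cdx1 and Cdx4. From emMidgut to emHindgut Cdx4 rose by 5.23 ± 0.786 on the log2 scale (limma, adjusted p = 4.7e-05), without overlap between the groups, as for 26.0% of genes. Cdx1 rose by 1.63 ± 0.486 (adjusted p = 0.0197), a call that was lost without any one of emMidgut replicates 2, 3 and 4 or emHindgut replicates 1 and 4 (limma, adjusted p = 0.0507 to 0.084). Cdx2 was lower in emHindgut by -0.38 ± 0.153 and was not called (adjusted p = 0.0845). In this comparison 12.8% of all genes were called.

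The same axis in the extraembryonic cells gave no called member, with 12.2% of all genes called. Cdx2 was higher in exHindgut than in exMidgut by 0.65 ± 0.153 (limma, adjusted p = 0.00407), below the fold threshold but without overlap between the groups, as for 21.2% of genes. Cdx4 differed by 1.00 ± 0.786 with an interval from -0.63 to 2.64 (adjusted p = 0.413), and by -0.01 without exHindgut replicate 1. Cdx1 differed by 0.77 ± 0.486 (adjusted p = 0.292).

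The hindgut libraries of both origins contained tail bud transcripts. The 12 markers summed to 1620 to 1950 TPM in emHindgut and 1000 to 1470 TPM in exHindgut, with 10 to 12 of them above 1 TPM, against at most 82.4 TPM in any midgut library. T (Brachyury), the defining transcription factor of the tail bud, was at 239, 177, 258 and 312 TPM in emHindgut and at 286, 163, 141 and 195 TPM in exHindgut, which overlap. Of 11 tail bud markers tested, 3 were lower in exHindgut and 8 were not called, with a median log2 difference of -1.01 against -0.02 over all genes tested, of which 1.32% were lower and 1.32% higher. The 3 were the presomitic mesoderm genes Msgn1 (-3.05 ± 0.802), Dll1 (-2.67 ± 0.662) and Tbx6 (-2.36 ± 0.55), and none of them was as far apart as Cdx4. The exHindgut library with the highest Cdx4, replicate 1, also had the highest tail bud sum of its group. Markers of other cells moved with Cdx4 too. The sum of 10 mesenchyme markers was 58.3 to 83.7 TPM in emHindgut and 26 to 40.5 TPM in exHindgut, with 3 of 8 tested lower and none higher. The sum of 10 neural markers was 21.8 to 27.8 TPM in emHindgut and 3.76 to 10.2 TPM in exHindgut, with 1 of 3 tested lower. Yolk sac endoderm markers moved the other way, with sums of 29.5 to 94.1 TPM in emHindgut and 122 to 687 TPM in exHindgut and 3 of 10 tested higher. None of these 3 pairs of sums overlapped. Gut endoderm markers summed to 2000 to 2570 TPM in emHindgut and 2580 to 3620 TPM in exHindgut, also without overlap, with 1 of 10 tested higher. The part of tail bud, mesenchyme, neural, yolk sac endoderm or gut endoderm cells in the Cdx4 difference was not tested.

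**Figure D4:**
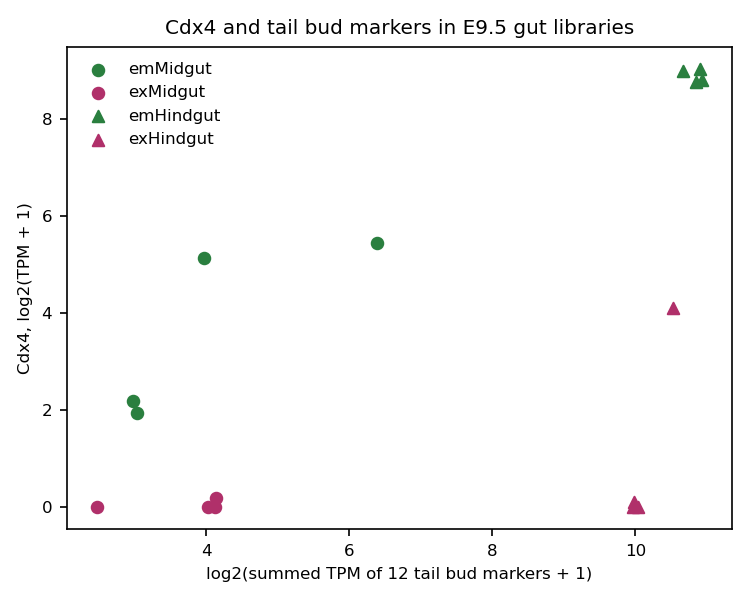
Cdx4 as log2(TPM + 1) against the log2 of the summed TPM of 12 tail bud markers plus 1 in the 16 E9.5 gut libraries; green is embryonic and magenta extraembryonic, circles are midgut and triangles hindgut. The exHindgut libraries lie below the emHindgut libraries both in summed tail bud markers (1000 to 1470 against 1620 to 1950 TPM) and in Cdx4 (at most 16.2 against at least 437 TPM).

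Cdx4 is X-linked, and the host embryos and the mESCs need not share their sex. Xist, the RNA of the inactive X chromosome in female cells, was 42.4 to 75 TPM in exHindgut and 22.3 to 113 TPM in exMidgut against at most 0.252 TPM in any E9.5 embryonic gut library. Of 509 X-linked genes tested in exHindgut minus emHindgut, 28 were higher and 4 lower, with a median log2 difference of 0.07 against -0.02 over all genes. In exMidgut minus emMidgut 29 were higher and 18 lower, with a median of 0.02 against -0.03 over all genes. Of these X-linked genes 6.29% were called in hindgut and 9.23% in midgut, against 2.64% and 3.87% of all genes. Over all genes 1.32% were higher and 1.32% lower in hindgut, and 1.67% and 2.2% in midgut. The part of the X chromosome's state in the Cdx4 level was not tested.

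The signals that act on Cdx transcription were examined as a list of 24 Wnt, FGF and retinoic acid genes with their mediators, of which 23 were tested at E9.5. The list also holds T, Evx1, Gdf11 and Bmp4. It is not separate from the tail bud markers, since Wnt3a, Fgf8, Cyp26a1, T and Evx1 are in both. Between emMidgut and emHindgut 16 were higher in hindgut and 3 lower, with a median log2 difference of 3.15 against -0.02 over all genes, of which 4.91% were higher and 7.92% lower. The largest were Fgf8 (7.51 ± 0.712), the retinoic acid-degrading enzyme Cyp26a1 (6.96 ± 0.535), T (6.45 ± 0.647) and Wnt3a (5.65 ± 0.326). Between exMidgut and exHindgut, where 4.95% of all genes were higher and 7.3% lower, 17 were higher and 4 lower, with a median of 2.89, led by Fgf8 (8.55 ± 0.712), Cyp26a1 (7.23 ± 0.535), Fgf17 (6.72 ± 0.558) and T (6.56 ± 0.647).

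Between origins fewer genes of the list were called. In exHindgut minus emHindgut, where 2.64% of all genes were called, it was 1 of 23, Aldh1a2, the retinoic acid-synthesising enzyme, at -1.56 ± 0.441 (limma, adjusted p = 0.0493), and 22 were not called. Fgf8 was at 591, 431, 376 and 321 TPM in exHindgut and 532, 319, 455 and 451 TPM in emHindgut. Wnt3a was at 30.4, 12.6, 25.9 and 32.6 TPM in exHindgut and 49.5, 43, 55.7 and 49.5 TPM in emHindgut, ranges that did not overlap. Of the other genes of the list that were not called, Cyp26a1 (447 to 699 TPM in emHindgut, 196 to 265 in exHindgut), Wnt5a (129 to 149 and 72.4 to 91.6 TPM) and Rara (7.66 to 16.4 and 17.2 to 21.7 TPM) did not overlap either. With Aldh1a2 this made 5 of the 24 genes of the list, against 11.9% of all genes. Without exHindgut replicate 1, or with median-ratio rescaling, no gene of the list was called. In exMidgut minus emMidgut, where 3.87% of all genes were called, 2 of 23 were higher and 2 lower: Bmp4 (1.92 ± 0.464) and Lef1 (1.13 ± 0.32), a TCF/LEF factor, were higher, and Aldh1a2 (-2.75 ± 0.441) and Wnt5b (-1.89 ± 0.464) were lower.

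**Figure D5:**
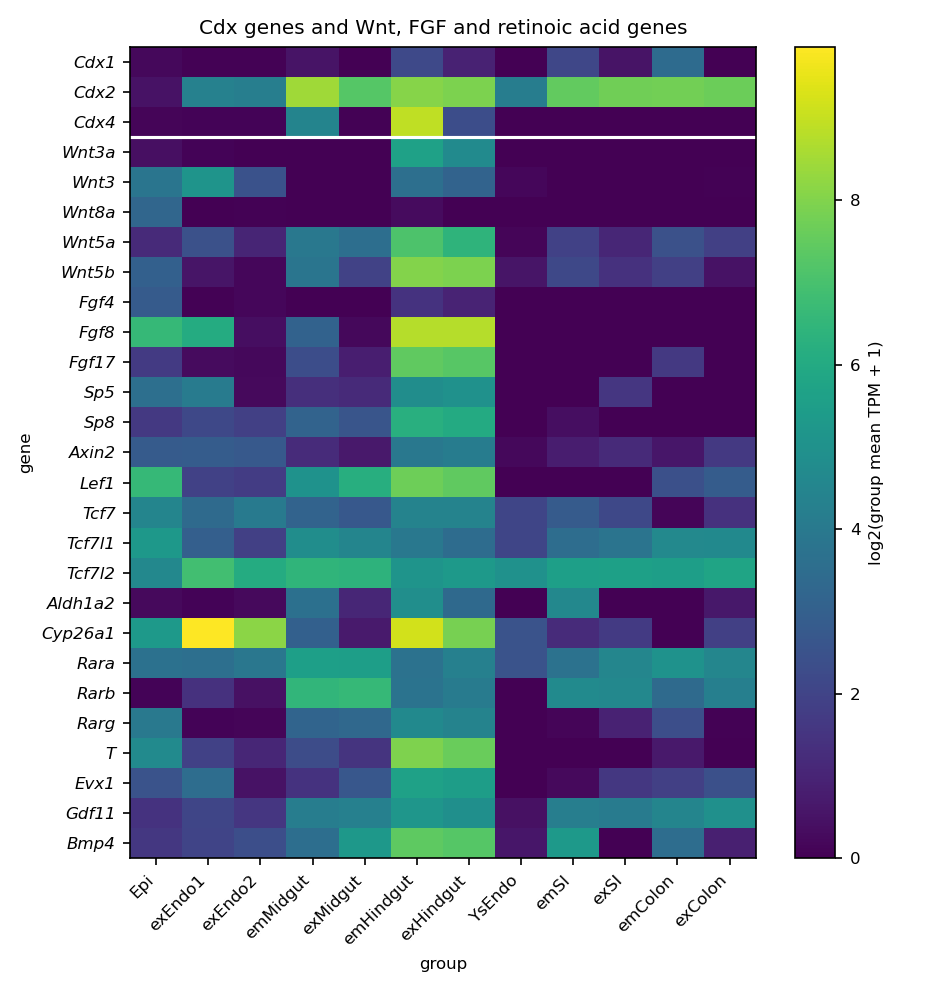
Group means of Cdx1, Cdx2 and Cdx4 (above the white line) and of 24 Wnt, FGF and retinoic acid genes as log2(mean TPM + 1) in the 12 groups. Fgf8, Wnt3a, Cyp26a1 and T are higher in both hindgut groups than in the midgut groups, with Cyp26a1 at 589 TPM in emHindgut and 227 TPM in exHindgut, where Cdx4 is 481 TPM in emHindgut and 4.07 TPM in exHindgut.

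Hox genes of the posterior groups, several of them known CDX targets, were described in 2 lists. Of 12 genes of paralogue groups 6 to 9, 11 were higher in emHindgut than in emMidgut and 10 in exHindgut than in exMidgut, with none lower. Of 11 tested genes of groups 10 to 13, all 11 were higher in hindgut for both origins. Over all genes 4.91% were higher in emHindgut and 4.95% in exHindgut. Between origins, where 1.32% of all genes were lower, 1 gene of each list was lower in exHindgut: Hoxb7 at -1.07 ± 0.301 (limma, adjusted p = 0.0493) and Hoxd12 at -3.67 ± 0.407 (adjusted p = 6.26e-06). The medians of the lists were -0.18 and -0.37 against -0.02 over all genes. The Hoxb7 call was lost under quantile normalisation and without exHindgut replicate 1.

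Hoxd12 was the only gene of these 2 Hox lists with a called interaction of origin with region. It was at 37.7, 26.4, 43.4 and 30.4 TPM in emHindgut and at 1.13, 2.8, 0.903 and 2.67 TPM in exHindgut, and the interaction was -3.27 ± 0.575 (limma, adjusted p = 0.0294), a call lost with a pseudocount of 0.1. Its neighbour Hoxd11 had 54.1, 38.1, 39.6 and 56.3 TPM in exHindgut and 59.4, 55, 51.2 and 61.1 TPM in emHindgut, and was not called. In the midgut 4 Hox genes were lower in exMidgut, 3 of 12 tested in groups 6 to 9 and 1 of 11 in groups 10 to 13. They were Hoxb9 (-1.70 ± 0.341), Hoxa6 (-1.34 ± 0.387), Hoxb6 (-1.20 ± 0.311) and Hoxc10 (-2.13 ± 0.614). Over all genes 2.2% were lower in exMidgut. Without emMidgut replicate 1, the library with the most tail bud transcript of its group, 1 of the 12 genes of groups 6 to 9 and none of the 11 of groups 10 to 13 were called (3 and 1 with all libraries, limma).

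Intestinal genes that depend on CDX2 or are bound by it were called in both directions in exMidgut minus emMidgut, where 1.67% of all genes were higher and 2.2% lower. Of 12 tested, 3 were higher in exMidgut, 1 was lower and 8 were not called, with a median log2 difference of 0.6 against -0.03. The tight-junction gene Cldn2 (2.45 ± 0.53), the fatty acid-binding protein gene Fabp2 (2.00 ± 0.433) and the trefoil factor gene Tff3 (1.93 ± 0.547) were higher, and the goblet cell mucin gene Muc2 was lower (-2.29 ± 0.446). Yolk sac endoderm markers were also higher there, as given above. Cldn2 and Fabp2 are expressed by visceral and yolk sac endoderm too, so that the list does not measure CDX2 activity alone. In exHindgut minus emHindgut none of the 12 was called by limma, and the median was -0.17.

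Transcription factors that work beside CDX2 in gut endoderm, among them Hnf4a, Gata4 and Foxa1, gave no call between origins in either region for any of the 17 tested (limma), with medians of 0.21 in midgut and 0.19 in hindgut. Between origins 3.87% of all genes were called in midgut and 2.64% in hindgut. Of 8 foregut transcription factors tested, a group that CDX2 is known to hold down, none was called in midgut. In exHindgut, where 1.32% of all genes were lower, 1 was lower, Pax8 (-1.75 ± 0.421), a call lost without exHindgut replicate 1. Along the axis 10 of the 17 partners were lower and 2 higher in emHindgut than in emMidgut, and 9 were lower and 1 higher in exHindgut than in exMidgut. Over all genes 7.92% and 7.3% were lower. Gata4 was among the furthest apart in both, at -3.52 ± 0.573 and -4.08 ± 0.573. In the same comparisons gut endoderm markers were lower for 8 and 6 of 10 tested, with 0 higher in either. Mesenchyme markers were higher for 4 of 8 tested and lower for 0 in emHindgut, and 1 was higher and 1 lower in exHindgut. The part of such cells in the axis differences of the partner, Cdx and Hox genes was not tested.

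Gut cells of extraembryonic origin were also set against YsEndo, the endoderm of the same lineage that stays outside the embryo. Cdx2 was the only member called, higher in exGut by 3.42 ± 0.15 (SE, limma, adjusted p = 5.13e-15, mean of both regions, 8 libraries against 4), in a comparison that called 41.9% of all genes. YsEndo had 12.8, 15.9, 23.9 and 16.7 TPM, and neither exMidgut nor exHindgut overlapped it, as for 57.9% and 63.4% of genes. The median over all genes was 0.57, and Cdx2 was 2.83 to 3.49 apart under the alternative scalings and fits. Cdx4 differed by 0.55 ± 0.648 (adjusted p = 0.463) and Cdx1 by 0.39 ± 0.366 (adjusted p = 0.361), with YsEndo at 0 for both. Of the signalling list 21 of 23 genes and of the Hox genes of groups 6 to 9 all 12 were higher in exGut, and of 13 intestinal CDX2 target genes 7 were lower, 2 higher and 4 not called.

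At E13.5 the surviving Trp53 KO cells of extraembryonic origin were compared with WT embryonic cells in colon and small intestine. No member was called, and the Cdx2 ranges of all 4 groups overlapped. Its values were 132, 179 and 290 TPM in exColon against 261, 210 and 180 TPM in emColon, and 175, 212 and 241 TPM in exSI against 96.7, 260 and 180 TPM in emSI. The log2 difference was -0.17 ± 0.344 in colon, with an interval from -0.91 to 0.56 (limma, adjusted p = 0.873), and 0.32 ± 0.344 in small intestine, with an interval from -0.41 to 1.06 (adjusted p = 0.939). Of all genes 0.617% and 0.505% were called. The midgut difference of E9.5, -1.19, lies outside the small intestine's interval, but the stages differ in genotype, pooling and number of libraries and were not compared by a test.

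Cdx1 was tested at E13.5 and not called. The difference of log2(TPM + 1) was -1.64 ± 1.1 in colon and -1.34 ± 1.1 in small intestine (limma, adjusted p = 0.554 and 0.891), and the colon value came from emColon replicate 1, without which both groups were listed at 0. Colon and small intestine did not differ in Cdx2 beyond the spread, at 0.37 ± 0.344 in embryonic and -0.12 ± 0.344 in extraembryonic cells (limma, adjusted p = 0.77 and 0.95), nor in Cdx1 (-0.08 ± 1.1 and -0.39 ± 1.1). These organ comparisons called 0.729% and 0.857% of all genes, and the interaction of origin with organ called 0.016%. It was -0.50 ± 0.487 for Cdx2 and -0.31 ± 1.56 for Cdx1. Cdx4 was listed at 0 in all 12 libraries and was not tested.

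Beside the E13.5 values stand markers of other cells. The emSI library with the lowest Cdx2, replicate 1 at 96.7 TPM, had a sum of 471 TPM over 10 mesenchyme markers, against 132 and 1.93 TPM in the other emSI libraries. The exColon library with the lowest Cdx2, replicate 1 at 132 TPM, had 185 TPM over 7 surface ectoderm markers against 40.8 and 15.9 TPM in the others. Their part in the Cdx2 values was not tested. Of the signalling, Hox, intestinal, foregut and tail bud lists, 1 gene was called between origins at E13.5, Tff3, higher in exSI by 2.36 ± 0.364 (limma, adjusted p = 0.00404). In each organ 15 signalling, 6 and 5 Hox, 12 intestinal, 6 foregut and 4 tail bud genes were tested. Of all genes 0.617% were called in colon and 0.505% in small intestine. Yolk sac endoderm markers were higher for 2 of 10 in both organs. They summed to 4840 to 7660 TPM in exSI, 1740 to 2330 in emSI, 3020 to 8290 in exColon and 2570 to 4940 in emColon. The part of such cells in the Tff3 difference was not tested.

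Over development from E9.5 to E13.5 the embryonic cells lost Cdx4 in both regions. From 437 to 526 TPM in emHindgut and 2.83 to 42.6 TPM in emMidgut it was listed at 0 in every emColon and emSI library. The differences of log2(TPM + 1) were -8.91 ± 0.698 from emHindgut to emColon and -3.68 ± 0.698 from emMidgut to emSI (SE, limma, adjusted p = 2.46e-07 and 0.00173), without overlap, as for 36.6% and 33.1% of genes. Over all genes 23.3% and 14.1% were called, with medians of -0.52 and -0.36, so that most genes were lower at the later stage on this scale. The stages also differ in the sort, GFP+ with low mCherry at E9.5 and GFP+ at E13.5. They differ in pooling as well, since only the E9.5 libraries pool embryos.

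Cdx2 was called lower in one region and not in the other. From emHindgut to emColon it differed by -0.31 ± 0.247 with an interval from -0.83 to 0.21 (limma, adjusted p = 0.358). From emMidgut to emSI it was lower by -1.06 ± 0.247 (adjusted p = 0.00708), without overlap between the groups. That call was lost under median-ratio rescaling (-0.79), with FPKM (-0.84), with the replicate block (-0.995, limma, adjusted p = 0.024), and without emSI replicate 1 (-0.68) or emMidgut replicate 4 (-0.99). Marker lists moved there too (all genes: 2.7% higher, 11.4% lower). Gut endoderm markers were lower for 5 of 10 tested, epiblast for 2 of 3 and neural for 1 of 3. Yolk sac endoderm markers were higher for 3 of 10 and lower for 2, mesenchyme markers for 1 of 9 each way. Germ cell markers summed to 52.2 to 71.2 TPM in emSI and 104 to 378 TPM in emMidgut, none of 4 tested called. The part of such cells in the Cdx2 and Cdx4 changes was not tested. Cdx1 differed by 1.36 ± 0.991 from emMidgut to emSI and by -0.35 ± 0.991 from emHindgut to emColon (adjusted p = 0.366 and 0.817). Without emColon replicate 1 the colon difference was -1.99 (limma, adjusted p = 0.0456).

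The genes around Cdx4 fell with it from hindgut to colon, where 17 of 22 tested Wnt, FGF and retinoic acid genes, all 11 Hox genes of groups 10 to 13 and 9 of 12 of groups 6 to 9 were lower. Over all genes 18.7% were lower and 4.55% higher, and under quantile normalisation 1077 genes were higher and 1064 lower. Cyp26a1 (-9.19 ± 0.765), Fgf8 (-8.76 ± 0.906), T (-7.43 ± 0.742) and Hoxc10 (-7.39 ± 0.783) were the furthest. All 10 tail bud markers tested, some of them also in the signalling list, were lower. The summed level of the tail bud markers in emColon was 1.72 to 5.01 TPM. Mesenchyme markers were lower for 5 of 9 tested (6.49 to 12.4 TPM in emColon against 58.3 to 83.7 TPM in emHindgut), neural markers for 2 of 3 and surface ectoderm markers for 2 of 4. Yolk sac endoderm markers were higher for 7 of 10 and lower for 1 (2570 to 4940 TPM against 29.5 to 94.1 TPM). The part of such cells in the fall of Cdx4 was not tested. In the same comparison 7 of 14 intestinal CDX2 target genes were higher and 1 lower, among them the intestinal homeobox gene Isx (7.31 ± 0.371) and the lectin gene Lgals4 (7.19 ± 0.791). From emMidgut to emSI, where 2.7% of all genes were higher and 11.4% lower, 4 of 14 were higher and none lower, with Lgals4 at 6.57 ± 0.791, Fabp2 at 5.99 ± 0.546 and the cadherin gene Cdh17, a direct CDX2 target, at 5.91 ± 0.461 on the log2 scale.

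The genes whose group means were most like those of each member over the 12 groups were named from 12471 genes with a group mean of at least 5 TPM, by Pearson's r of log2(TPM + 1). For Cdx4 they were Insl5 (r = 0.984), Col26a1 (0.983), Vegfc (0.951), Scube1 (0.937), Gm14226 (0.93) and Hoxb1 (0.914). All 6 had their highest mean in emHindgut, which follows from choosing genes by a profile that peaks there. For Cdx2 they were Cpm (0.974), H2afy (0.962), Idh1 (0.955), Micu2 (0.954), Mapkapk2 (0.953) and Mcrip1 (0.952). For Cdx1, whose profile rests on few libraries, they were Emp3 (0.914), Elp6 (0.888), Cdk5rap1 (0.879), St6galnac4 (0.859), Psmc4 (0.851) and Eid2 (0.844). Ranking by Spearman's rho kept 0 of the 6 for each member. Among the members themselves r was 0.35 for Cdx2 with Cdx4, 0.45 for Cdx1 with Cdx2 and 0.52 for Cdx1 with Cdx4 over the same 12 means, which share stage and tissue.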

How the data were processed

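Low-input Smart-seq RNA-seq libraries of sorted or dissected cells were measured in 44 samples. Per the study's methods and processing notes the authors used cutadapt 4.1 for trimming, STAR 2.7.9a for alignment to mm10 with both reporter sequences added, and StringTie 2.0.6 for quantification of GENCODE genes. The deposited values are TPM, FPKM and mean read coverage per gene (signal, used only as depth). Each deposited TPM column sums to 1000000, so that a gene's level depends on the other genes.

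TPM was summed per gene ID (3 to 11 repeated rows per table), and gene types came from GENCODE vM21 (32235 IDs matched). Differences were tested with limma 3.58.1 (R 4.3.3; lmFit on group means, eBayes with trend, two-sided) on log2(TPM + 1), so that fold changes of low genes are understated. Protein-coding genes off the Y chromosome above 1 TPM in at least 4 libraries of a fit (3 at E13.5) were kept. P-values were adjusted by Benjamini-Hochberg over all genes tested, a call being an adjusted p below 0.05 and a log2 difference beyond 1 (interactions: no fold threshold). The groups of E6.5, the 4 gut groups of E9.5 (with YsEndo added for its own comparison) and the groups of E13.5 each shared a fit, and the E9.5 to E13.5 comparisons used the 4 embryonic gut groups. The test was checked on simulated data. At most 4 called genes per list and comparison are named, those with the largest difference, and the 6 genes most like each member. The hindgut values of Fgf8, Wnt3a, Wnt5a, Cyp26a1, Rara, T and Hoxd11, the midgut value of Dppa3 and the 3 called tail bud markers lie outside this rule and were chosen after they were seen. Hox, signalling, target and marker lists, and the members, were chosen with earlier results of these data known.

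Same-numbered exEndo1 and exEndo2 libraries deviated together from their group means (r = 0.146 to 0.38 over genes in the 4 pairs), so those numbers pair the samples. In no other pair of groups did every r exceed 0.1. At E13.5, however, Trp53 was 33.4, 167 and 117 TPM in exSI and 42.5, 124 and 123 TPM in exColon replicates 1 to 3. In the same order mCherry was 3017, 4203 and 8667 TPM in exSI and 2624, 3306 and 6081 TPM in exColon. The labels do not say whether same-numbered organs came from the same embryo, and the main E13.5 tests treated all libraries as unpaired. The alternatives changed the pseudocount (0.1), the filter (none, or every gene type), the scaling (quantile, median-ratio or FPKM), the trend in eBayes, the replicate block and the libraries fitted together, or left out each library in turn. List counts without single libraries, list counts under other scalings and the octamer were added after the data were seen.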

Additional observations from a re-analysis of the deposited data

Results flagged for a closer look

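Of 24 member-by-group sets of 4 libraries, 7 held a library far from the other 3 on the log2(TPM + 1) scale by Dixon's criterion. Chance meets it in about 1 of 20 groups of normally distributed values, a rate that does not hold for the 4 sets in which the other 3 libraries were at 0 and any value above 0 meets it. Cdx4 in exHindgut replicate 1 was 16.2 TPM, where the other 3 were at most 0.0797 TPM. Cdx1 in emMidgut replicate 1 was 1.75 TPM beside 3 libraries at 0. Cdx2 in exEndo2 replicate 1 was low, at 8.2 TPM. The other 4 were traces near the limit of detection: Cdx1 in exEndo1 replicate 4 (0.132 TPM) and in exEndo2 replicate 2 (0.128 TPM), and Cdx4 in exEndo1 replicate 1 (0.283 TPM) and in exMidgut replicate 4 (0.147 TPM).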

How the results depend on the processing

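Under the alternatives other than leaving out a library, 376 values of the members' differences kept direction and call, 6 changed sign, 4 lost a call and 1 gained one. With all 44 libraries in a single fit Cdx1 in emHindgut minus emMidgut was 1.627 (limma, adjusted p = 0.0613, no longer called) and the Cdx4 interaction at E9.5 was -4.224 (adjusted p = 0.00539, now called). Cdx2 in emSI minus emMidgut lost its call with median-ratio rescaling (-0.789), FPKM (-0.842) and the replicate block (-0.995), and the block changed no other call. Uncalled differences changed sign as follows: Cdx1 in emColon minus emSI with quantile normalisation (0.118) and FPKM (0.117), Cdx1 in the E13.5 interaction with a pseudocount of 0.1 (0.316), Cdx1 in emColon minus emHindgut with quantile normalisation (0.45) and FPKM (0.026), and Cdx2 there with median-ratio rescaling (0.033). The cause of these changes was not tested. Fitting only the groups compared gave no separate value for exGut minus emGut and for both interactions.

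Leaving out 1 library at a time kept direction and call in 338 values, while 16 changed sign, 3 fell to 0, 7 lost a call and 2 gained one. Called Cdx4 differences ranged from -8.87 to -7.50 in hindgut and from -4.21 to -3.04 in midgut, and Cdx2 in midgut from -1.27 to -1.11. For Cdx2 the range was -0.234 to 0.415 in exEndo1 minus exEndo2, -0.478 to 0.088 in exColon minus emColon, -0.059 to 0.649 in exSI minus emSI, -0.01 to 0.698 in emColon minus emSI, -0.429 to 0.137 in exColon minus exSI and -1.387 to -0.679 in emSI minus emMidgut. In exEndo1 minus exEndo2 each omission also left the same-numbered library of the other group unmatched. For Cdx4 the range was -0.013 to 1.356 in exHindgut minus exMidgut and -5.241 to -3.643 in the E9.5 interaction. For Cdx1 it was -0.487 to 0 in exMidgut minus emMidgut, 1.314 to 1.994 in emHindgut minus emMidgut, -2.467 to 0 in exColon minus emColon, -1.728 to 0.739 in emColon minus emSI, -0.585 to 0 in exColon minus exSI, -1.129 to 1.339 in the E13.5 interaction and -1.993 to 0.474 in emColon minus emHindgut.

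Counts of genes called over all genes moved by more than 1.5 times as follows. With all 44 libraries in a single fit they went from 785 to 462 in exEndo1 minus exEndo2, from 13 to 68 in the E9.5 interaction, from 77 to 1934 in exColon minus emColon, from 63 to 911 in exSI minus emSI, from 91 to 1594 in emColon minus emSI, from 107 to 1403 in exColon minus exSI, from 2 to 1347 in the E13.5 interaction and from 1829 to 2914 in emSI minus emMidgut. With only the compared groups they went to 321 from 521 in exMidgut minus emMidgut, 30 in exColon minus emColon and 53 in emColon minus emSI. Without a region term exGut minus emGut went from 620 to 316. Without a filter the E9.5 interaction had 8 calls, exColon minus emColon and emColon minus emSI 51 each, exColon minus exSI 61 and the E13.5 interaction 14. A pseudocount of 0.1 left 0 calls in both interactions and 70 in exColon minus exSI. Without trend the interactions had 8 and 6 calls, and with the block the E9.5 interaction had 8. Leaving out 1 library moved a count by that much in the E9.5 interaction (to 3 to 7 calls), exColon minus emColon (43, without exColon replicate 3), exSI minus emSI (33 and 38, without emSI replicates 1 and 2), emColon minus emSI (25 to 53, without any emSI library or emColon replicate 2), exColon minus exSI (25 to 70, without exSI replicate 1 or 2 or any exColon library) and the E13.5 interaction (0 or 1).

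The split of higher to lower calls moved by over 10 percentage points with the scaling: in exEndo1 minus Epi from 2485 and 1635 to 2026 and 2042 (quantile), in exGut minus YsEndo from 4400 and 1371 to 2338 and 2279 (quantile) and 2915 and 2397 (median-ratio), in exColon minus emColon from 62 and 15 to 48 and 25, and 46 and 21, in emSI minus emMidgut from 351 and 1478 to 660 and 767, 567 and 940, and 517 and 998 (FPKM), and in emColon minus emHindgut from 592 and 2440 to 1077 and 1064, and 909 and 1565. Read counts were not used here, so that values near 1 TPM carry an unknown counting error, and each group has 3 or 4 libraries.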
